A study of Gallus gallus with 8 samples.

Results

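Expression was described for 10 genes of extracellular BMP signalling: the ligands BMP2, BMP4, BMP5, BMP7 and GDF7, and the secreted BMP-binding proteins CHRD, NOG, BMPER, TWSG1 and FST. Members were every probe set whose symbol in the deposited array table was one of these names. This gave 15 of 38439 probe sets, 8 for ligands and 7 for BMP-binding proteins, which covered 9 of the 10 genes. No probe set carried the symbol GDF7, so this roof plate ligand was not analysed here. Cells came from the trunk neural tube of white Leghorn chick embryos, electroporated in ovo at Hamburger and Hamilton stages 10 to 11. All embryos received 2 kinds of plasmid, a BMP-responsive element (BRE, a sequence that drives transcription when BMP signalling is active) placed before green fluorescent protein, and a marker that turns the nuclei of electroporated cells red. After 24 h the cells of nearly 30 embryos made up a pool. From it, red cells with green fluorescence (BRE_active) were separated from red cells lacking it (BRE_inactive). The labels give at least 100000 red and at least 20000 green cells per pool. There were 4 pools and thus 4 arrays per group, and both fractions of a pool came from the same embryos. A probe set is named by the end of its identifier (S1_at, S2_at, s_at, a_at) where a gene has several. Both groups were sorted for the transient red marker, and a cell was grouped by its reporter, not by its position in the neural tube.

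BMPs are secreted dimers that bind type I and type II receptor kinases, which phosphorylate SMAD1, SMAD5 and SMAD9. BMP5 and BMP7 belong to one subgroup of the family and BMP2 and BMP4 to another. In the chick, ligands from the surface ectoderm and later the roof plate pattern the dorsal neural tube, and BMP4 together with the antagonist noggin (NOG) is known for setting the time at which trunk neural crest cells leave it. Chordin (CHRD) and noggin hold ligands away from their receptors. Twisted gastrulation (TWSG1) and the crossveinless-2 homologue BMPER bind BMPs and chordin and can raise or lower signalling. Follistatin (FST) binds activins tightly and several BMPs.

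The arrays were alike in overall level, with medians from 4.24 to 4.32 on the log2 scale. A probe set is called present where the authors' deposited call letter says so, and 47.7% of probe sets were present on no array. Of 5 neural progenitor markers, SOX2, SOX3, PAX6 and HES5 were present on all 8 arrays, SOX1 on fewer. SOX3 (-1.09, adjusted p = 0.0027) and PAX6 (-1.11, adjusted p = 0.0349) were lower in BRE_active cells by limma, 4 of the 5 with the block, and the list median was -0.84. Markers of other cells moved with the groups too. Of 10 measured red blood cell genes, 7 were lower in BRE_active cells, and their mean level was 10.4 to 12.6 on BRE_inactive and 6.56 to 9.19 on BRE_active arrays. Of 10 measured roof plate and dorsal genes 4 were higher, with means of 6.73 to 7.25 and 7.63 to 8.26, while WNT1, RSPO1 and PAX3 were present on no array. Of 8 neural crest genes 6 were higher, and of 6 ventral genes 5 were lower. No gene was called among 9 surface ectoderm genes (EPCAM, CDH1 and TP63 were present on all arrays, DLX3 and TFAP2C on none) or among 12 somite and mesoderm genes (FOXC1, MYF5 and MYOD1 present on none) by limma, with 1 gene of each list at an unadjusted p under 0.05. The somite list was lowest on BRE_active 1, at 4.76 against 5.78 to 5.92 on the other BRE_active arrays and 5.07 to 5.38 on BRE_inactive arrays. The log2 gap between 3-prime and 5-prime probe sets, averaged over 3 control genes (actin, EF1A and GAPDH), was larger in the BRE_active fraction of each of the 4 pools, with a mean of 0.335 more, although that of actin alone was smaller in pools 1 and 4. The part of these shifts in the results below was not tested.

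Among the members, BMP5 was the gene that passed the test between the groups, and it was higher in cells with an active reporter. The brightest BMP7 probe set was higher on every BRE_active array than on any BRE_inactive array, but with all 8 arrays and the adjustment over all probe sets it passed only when the pool entered the fit as a block. TWSG1 and BMP2 were higher and FST lower in all 4 pools, and with all arrays they passed only with the block. BMPER was also higher in all 4 pools, but over all probe sets it did not pass with the block. By probe set, 8 of 15 members were higher and 2 lower in all 4 pools. Of all probe sets, 27.7% had 1 sign in all 4 pools. The brightest probe sets of CHRD and NOG differed by less than 0.1 on the log2 scale. A gene or probe set is called here where limma (group as the only term, 4 arrays against 4) gave an adjusted p under 0.05 over all probe sets. That fit leaves out the pairing by pool, which the block takes in. On this test 1 of 15 member probe sets was called higher, against a background of 0.981% of all probe sets, and 0 were called lower, against 0.364%. Limma gave 10 of the 15 an unadjusted p under 0.05, as it did 13.9% of all probe sets. Taking the brightest probe set of each gene, 1 of 9 members was called higher and 0 lower, where 1.55% and 0.657% of 13249 genes were called. With the block, which compares the fractions of the same embryos, 5 of 15 probe sets were called higher and 2 lower, against 3.97% and 1.64% of all probe sets. By gene this was 4 of 9 higher and 1 lower, against 4.91% and 2.55%. With the adjustment taken over 13249 genes in place of all probe sets, 2 of 9 were higher without the block (BMP5 and BMP7), against 2.02%. With the block on that adjustment, 5 of 9 were higher and 1 lower, against 5.86% and 3.31%. The 4 BRE_active arrays all lay above the 4 BRE_inactive arrays for 5 of 15 probe sets, against 3.74% of all probe sets, and all below them for 0, against 3.39%. The median difference was 0.45 over the 9 genes, 0.91 over the 4 ligands and 0.07 over the 5 BMP-binding proteins, beside -0.02 over all genes. No ligand lay near the ligand median, which falls between BMP2 (0.45) and BMP7 (1.37). BMP4 entered it with a probe set present on no array. In sorted bulk samples, fewer cells of a type and less RNA per cell cannot be told apart.

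**Figure D1:**
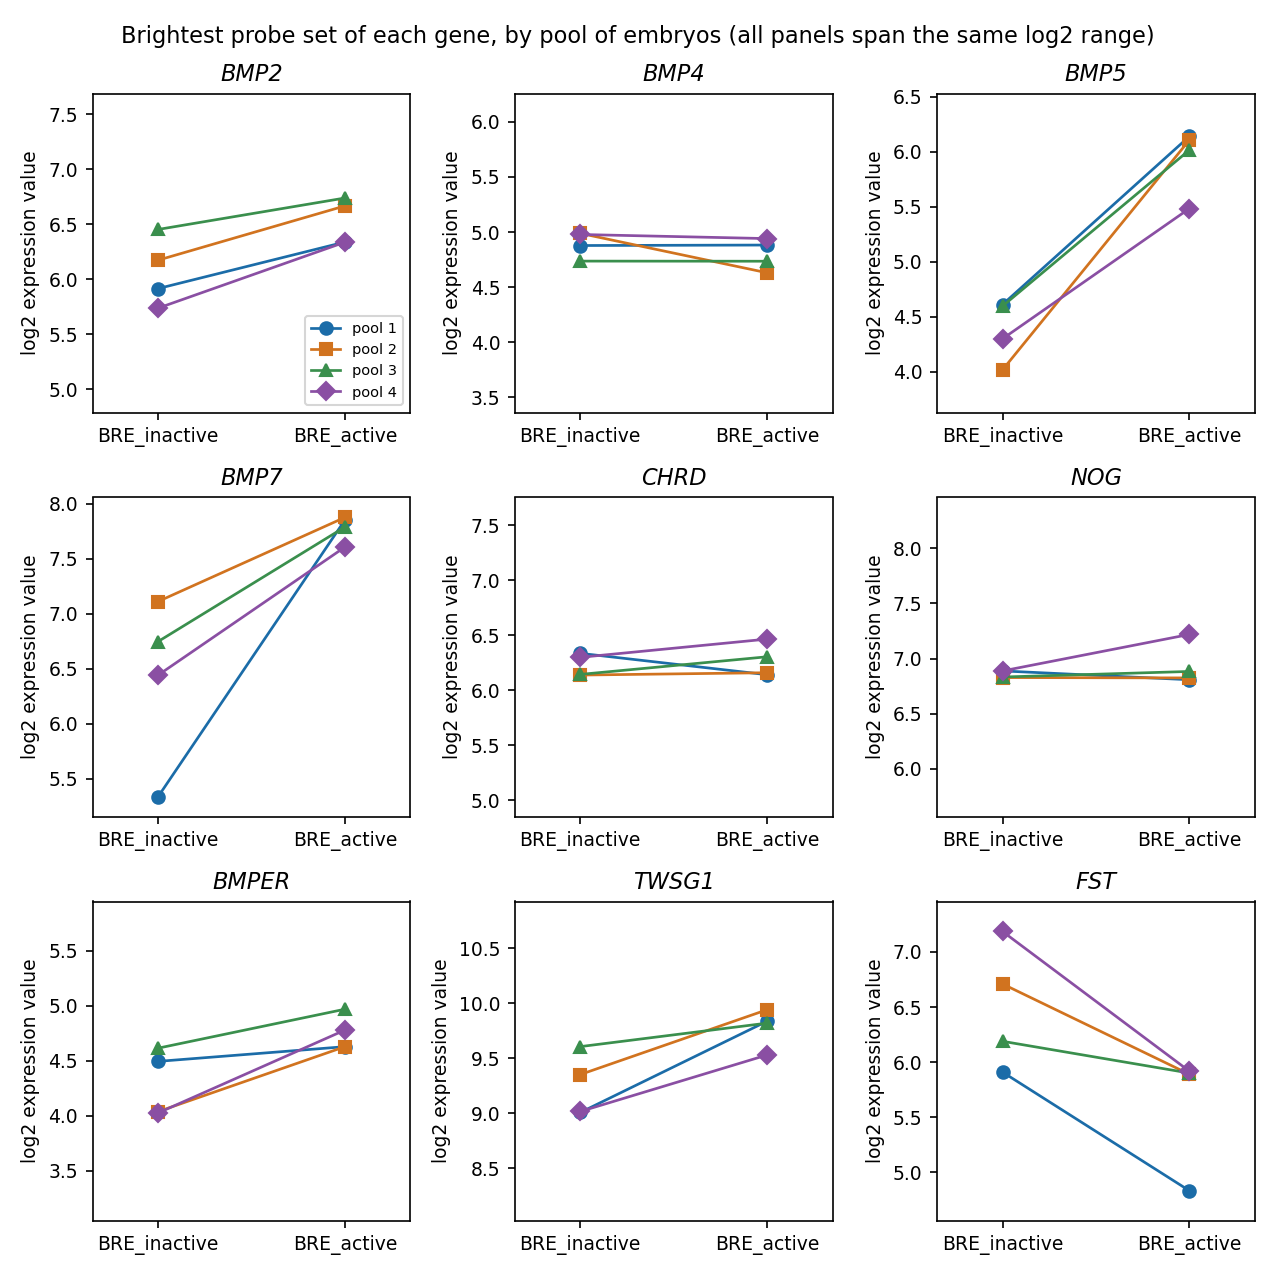
Log2 expression value (vertical axis) of the brightest probe set of each of the 9 measured genes in BRE_inactive and BRE_active cells, with a line joining the fractions of 1 pool of embryos and every panel spanning the same log2 range. The lines of BMP5 (from 4.02 to 4.61 up to 5.48 to 6.14) and BMP7 slope upward in all 4 pools, those of FST slope downward in all 4, and those of CHRD and NOG are nearly flat.

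BMP5, a ligand of the same subgroup as BMP7, had 1 probe set, present on all 8 arrays. Its log2 values were 4.61, 4.02, 4.60 and 4.30 in BRE_inactive cells of pools 1 to 4, and 6.14, 6.10, 6.01 and 5.48 in BRE_active cells of the same pools. The lowest BRE_active array, that of pool 4, lay above the highest BRE_inactive array. The means were 4.38 ± 0.28 and 5.94 ± 0.31 (SD, n = 4), a difference of 1.55 ± 0.18 (SE), or 2.94-fold with a 95% interval of 2.23 to 3.86. The adjusted p was 0.00383 by limma and 0.0008 with the block. The difference was 1.53, 2.09, 1.42 and 1.18 in pools 1 to 4, so pool 2 gave the largest and pool 4 the smallest. BMP5 kept its direction under each of the 21 alternatives, with differences of 1.38 to 1.70. The block with all arrays, the filter on dim probe sets, the variance model and the series matrix values could not change the difference of 1.55. Without pool 3 the limma call was lost, at an adjusted p of 0.0506, although the difference there was 1.60. With the block, BMP5 was called whichever of the 4 pools was left out, with adjusted p from 0.00132 to 0.011.

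BMP7 had 3 probe sets, and they did not give the same picture. The brightest (a_at) was present on all 8 arrays, with values of 5.34, 7.11, 6.75 and 6.44 in BRE_inactive cells of pools 1 to 4 and 7.85, 7.87, 7.79 and 7.60 in BRE_active cells. The BRE_active arrays lay close together and above every BRE_inactive array, while the BRE_inactive arrays spread widely, with pool 1 far below the others. The means were 6.41 ± 0.77 and 7.78 ± 0.12 (SD, n = 4), a difference of 1.37 ± 0.31 (SE), or 2.59-fold with an interval of 1.59 to 4.20. The adjusted p was 0.0772 over all probe sets by limma, 0.0499 over genes and 0.0175 with the block. By pool the difference was 2.51, 0.76, 1.04 and 1.16, largest in pool 1, where the BRE_inactive value was lowest. Without BRE_inactive 1 the difference was 1.01 and passed (adjusted p = 0.0289), as it did without BRE_inactive 2, at 1.60 (adjusted p = 0.045). With the block, BMP7 was called without pool 1, 2 or 4, and had an adjusted p of 0.071 without pool 3.

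The other BMP7 probe sets were dim. The one ending in S1_at was present on 0 BRE_inactive arrays and on 3 BRE_active arrays, those of pools 1 to 3. Its values were 2.97, 2.93, 2.97 and 3.01 in BRE_inactive and 3.35, 3.38, 3.34 and 3.09 in BRE_active cells. The groups did not overlap, but pool 4 moved by only 0.08. By this probe set the measured ratio was 1.25-fold, with an interval of 1.09 to 1.43. A detection floor was taken on each BRE_inactive array, the dimmest signal of any probe set with present calls throughout that group. The measured BMP7 signal was not below that floor, so the floor did not change the ratio. That floor is the lowest of all such probe sets, so it cannot show whether this one was detected. With no present call on a BRE_inactive array, whether the true ratio is larger cannot be told. The adjusted p of this probe set was 0.137 by limma and 0.0948 with the block, and the measured means were 2.97 ± 0.03 and 3.29 ± 0.13 (SD, n = 4). Without BRE_active 4 it was called (adjusted p = 0.0315), as it was without pool 4 (adjusted p = 0.0415). The one ending in s_at was present on 1 of 8 arrays, BRE_active 3, and the interval of its difference, -0.23 to 0.32, spanned 0 (means 3.11 ± 0.22 and 3.15 ± 0.15, SD, n = 4, adjusted p = 0.908).

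BMP2, a ligand of the BMP2 and BMP4 subgroup, differed less. Its brighter probe set (S1_at) was present on all arrays but BRE_inactive 4, with values of 5.92, 6.17, 6.45 and 5.74 in BRE_inactive and 6.34, 6.67, 6.74 and 6.34 in BRE_active cells. The groups overlapped, because BRE_inactive 3 exceeded BRE_active 1 and 4, yet within every pool the BRE_active value was higher. The pool differences were 0.42, 0.49, 0.29 and 0.60. The mean difference was 0.45 ± 0.16 (SE, 4 arrays per group), or 1.37-fold with an interval of 1.06 to 1.76. It was not called by limma (adjusted p = 0.267) and was called with the block (adjusted p = 0.0251). That call was lost when pool 2, 3 or 4 was left out, with adjusted p up to 0.0919. The second probe set of BMP2 (S2_at) was present on BRE_inactive 1 alone, and the interval of its difference, -0.25 to 0.21, spanned 0 (means 3.78 ± 0.18 and 3.76 ± 0.08, SD, n = 4, adjusted p = 0.955).

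BMP4, the ligand most often named with neural crest delamination, was near the detection limit. Its brightest probe set by a small margin (s_at) was present on 0 of 8 arrays, with values of 4.74 to 4.99 in BRE_inactive and 4.63 to 4.94 in BRE_active cells, so no fold is given. The other (S1_at) was present on 0 BRE_inactive arrays and on BRE_active 1 and 4. It read 4.61, 4.34, 4.70 and 4.71 in BRE_inactive and 4.96, 4.94, 5.08 and 5.22 in BRE_active cells. The 2 groups did not overlap, and each pool moved the same way. By this probe set the measured ratio for BMP4 was 1.38-fold, with an interval of 1.16 to 1.63 (means 4.59 ± 0.17 and 5.05 ± 0.13, SD, n = 4). Limma gave an adjusted p of 0.087, and 0.0215 with the block, which was lost without pool 2, 3 or 4 (up to 0.0925). Neither BMP4 probe set was thus called by limma on group alone, and with the block only S1_at passed. For s_at the adjusted p was 0.698 by limma and 0.638 with the block.

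FST was the only member with a lower level in BRE_active cells in all 4 pools, and both its probe sets showed it. The brighter one (S2_at) had values of 5.91, 6.71, 6.19 and 7.19 in BRE_inactive and 4.83, 5.89, 5.90 and 5.92 in BRE_active cells. This probe set was present on all arrays but BRE_active 1, where its call was marginal. The groups touched, since BRE_active 4 lay just above BRE_inactive 1, and BRE_active 1 lay far below the rest. The pool differences were -1.08, -0.82, -0.29 and -1.27, smallest in pool 3. The mean difference was -0.86 ± 0.31 (SE), with an interval of -1.57 to -0.16, an adjusted p of 0.269 by limma and 0.015 with the block. The other probe set (S1_at) was present on all 8 arrays. It read 5.80, 6.19, 5.72 and 6.33 in BRE_inactive and 5.09, 5.48, 5.55 and 5.81 in BRE_active cells, a difference of -0.53 ± 0.18 (SE), with adjusted p of 0.234 by limma and 0.0315 with the block. The array-wise gap between the FST probe sets did not differ between the groups beyond the spread (exact permutation test, two-sided, p = 0.171, 0.343 adjusted over 2 genes with such a pair). That test left out the pairing by pool. With the block the brighter probe set was called unless pool 2 was left out (adjusted p = 0.062), and the other lost its call without pool 1, 2 or 4 (adjusted p up to 0.118). Without BRE_active 1 the differences were -0.60 and -0.40, and the adjusted p by limma 0.522 and 0.484. The somite, surface ectoderm and red blood cell lists were all lowest on that array, and a link with FST was not tested.

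TWSG1 had 2 bright probe sets, both present on all 8 arrays. The brighter (S1_at) read 9.01, 9.35, 9.60 and 9.02 in BRE_inactive and 9.84, 9.94, 9.82 and 9.53 in BRE_active cells. BRE_inactive 3 lay above BRE_active 4, so the groups overlapped, and in each pool the BRE_active value was higher. The difference was 0.54 ± 0.15 (SE), or 1.45-fold with an interval of 1.15 to 1.83, and the adjusted p was 0.153 by limma and 0.0296 with the block. The pool differences were 0.83, 0.59, 0.21 and 0.51, largest in pool 1, as for BMP7. The second probe set (S2_at) gave 0.53 ± 0.19, with pool differences of 1.01, 0.36, 0.34 and 0.39 and adjusted p of 0.259 and 0.0513. The TWSG1 probe sets gave nearly the same difference between the groups (0.01 apart, exact permutation test, two-sided, p = 0.943, also without the pairing by pool). With the block the call of the brighter one was lost without pool 1, 2 or 4 (adjusted p up to 0.105).

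BMPER had 1 probe set, present on 3 BRE_inactive and 4 BRE_active arrays. Its values were 4.49, 4.04, 4.61 and 4.02 in BRE_inactive and 4.63, 4.63, 4.97 and 4.78 in BRE_active cells. The groups did not overlap, but only narrowly, with BRE_inactive 3 just under BRE_active 1 and 2. The difference of 0.46 ± 0.15 (SE), 1.37-fold with an interval of 1.09 to 1.74, was not called by limma (adjusted p = 0.225) or with the block (adjusted p = 0.0576). It was called with the block without pool 1, at 0.57 (adjusted p = 0.0247).

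CHRD and NOG, the classical antagonists, showed little difference. NOG was present on all 8 arrays and read 6.89, 6.83, 6.83 and 6.89 in BRE_inactive and 6.81, 6.82, 6.88 and 7.22 in BRE_active cells. All NOG values but that of BRE_active 4 lay within 6.81 to 6.89. The difference was 0.07 ± 0.10 (SE), and the interval on the linear scale ran from 0.899-fold to 1.23-fold (adjusted p = 0.784). CHRD was present on 2 BRE_inactive and 4 BRE_active arrays. It read 6.34, 6.14, 6.15 and 6.30 in BRE_inactive and 6.14, 6.16, 6.31 and 6.47 in BRE_active cells, fully overlapping. Its difference was 0.04 ± 0.10 (SE), with an interval of 0.882-fold to 1.20-fold (adjusted p = 0.893). Both intervals leave out a change as large as that measured for BMP5. Both signs turned when quantile normalization was applied to the deposited values, to -0.02 for NOG and -0.03 for CHRD.

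**Figure D2:**
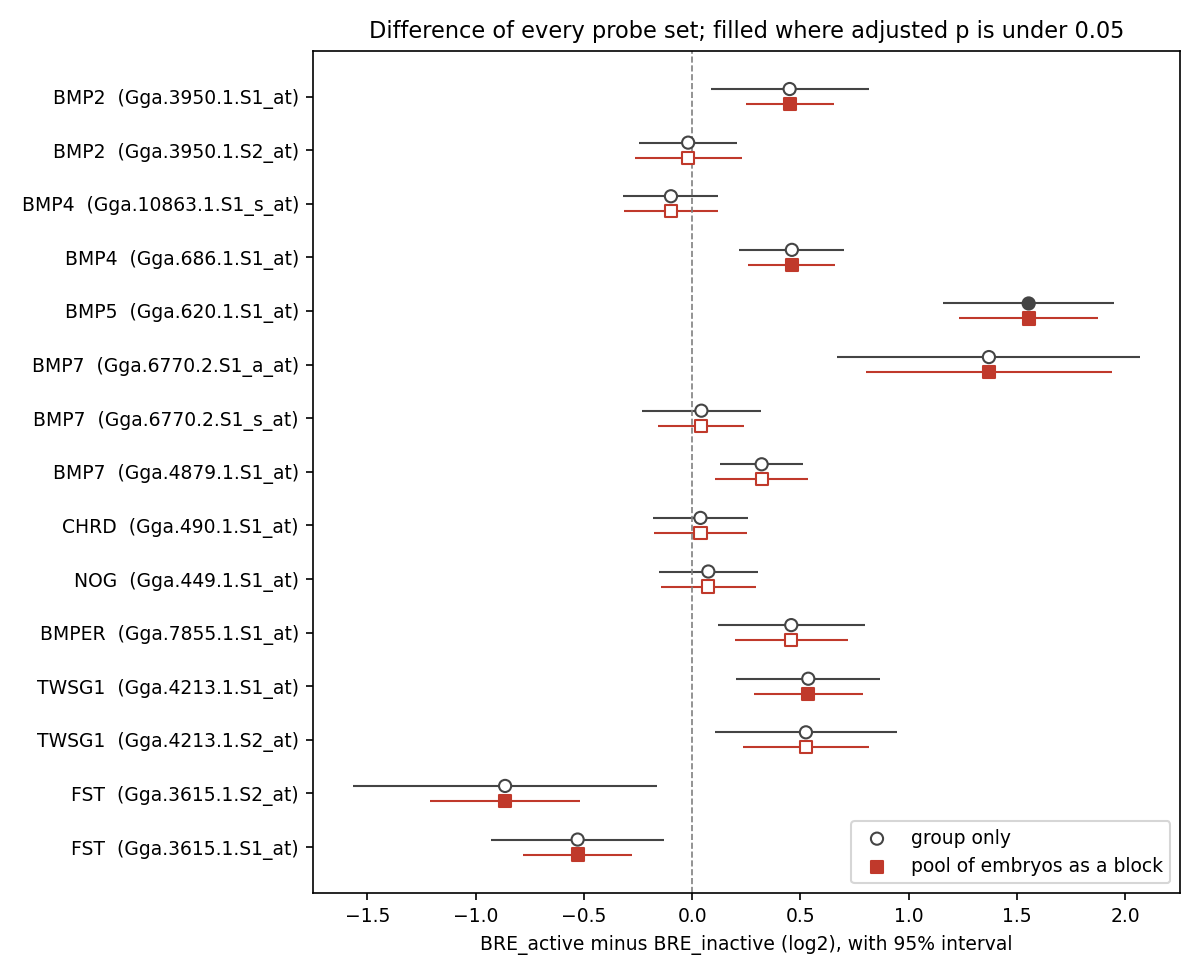
Difference between BRE_active and BRE_inactive cells (horizontal axis, log2) for each of the 15 probe sets, with its 95% interval, from limma on group alone (circles) and with pools as a block (squares); filled symbols mark an adjusted p under 0.05. BMP5 at 1.55 is filled in both fits, 6 further probe sets are filled with the block, and both FST probe sets lie left of 0.

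The members were also compared with each other, because 2 genes on the same array can change unequally. For each of 36 pairs of the 9 genes the array-wise log ratio was compared between the groups with an exact permutation test (two-sided, 4 arrays against 4, smallest possible p = 0.0286). In 16 pairs the p was 0.0286, and the adjusted p over the 36 pairs was 0.0643, so 0 pairs passed. At least 21 pairs at the smallest p would have been needed for any to pass, so this count says little, and the test leaves out the pairing by pool. The gap between BMP5 and FST was the widest, 2.42 on the log2 scale, with the same sign in all 4 pools. BMP5 differed by 1.10 more than BMP2, by 1.48 more than NOG and by 1.52 more than CHRD, also with 1 sign in all 4 pools. The mean differences of BMP5 and BMP7 were 0.18 apart (p = 0.686, exact permutation test, two-sided), which does not show them to be equal. By pool they were less alike, at 1.53 and 2.51 in pool 1, and 2.09 and 0.76 in pool 2. These comparisons were chosen after the values had been seen.

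By the brightest probe set of each gene, pool 1 gave the largest difference for BMP7 and TWSG1, pool 2 for BMP5, and pool 4 for BMP2, BMPER and FST. Pool 3 gave the smallest for BMP2, TWSG1 and FST. The members thus did not rank the pools in one order, and S1_at of FST was largest in pool 1 (-0.72) and S1_at of BMP7 in pool 2 (0.45). In the deposited table BMP2 and BMP5 were placed on chromosome 3, TWSG1 and BMPER on chromosome 2, BMP4 on chromosome 5, BMP7 on chromosome 20, NOG on chromosome 18 and FST on the sex chromosome Z, with CHRD not placed. No source used here gives the genome build behind these positions.

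The genes closest in pattern to each member were sought among 6423 other genes present on all arrays of at least 1 group, by the root mean square difference over the 8 arrays after centring each gene on its mean. For BMP5 they included MSX2, a homeobox gene of the dorsal neural tube, at 0.165, and GXYLT1, a xylosyltransferase, at 0.218, beside an overall spread of BMP5 of 0.818. For BMP7 they were FZD4, a Wnt receptor, at 0.311, SLIT2, a guidance ligand, at 0.323, and CAB39L at 0.360. For TWSG1 they were C1GALT1 at 0.0733, MESDC2 at 0.0787 and the proteoglycan gene SDC1 at 0.0917. For FST they were HDAC9, a histone deacetylase, at 0.237, EML1 at 0.245 and the chemokine receptor gene CXCR4 at 0.249. The neighbours of BMP2 were CDC37, SMIM14 and TMEM43, and those of BMPER were RPGR, RAB20 and MYLIP. NOG and CHRD shared a neighbour, the proteasome gene PSMC3. All 5 of their neighbours differed by less than 0.1 between the groups, which follows from choosing genes close to members with little difference. BMP7 had no neighbour as close as those of TWSG1. For the other members too, the measure favours genes with a similar group difference, such as MSX2 (1.69) beside BMP5 (1.55). These distances are descriptions over 8 arrays that share 4 pools.

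Other genes of the pathway gave the setting for the members. A list of 13 measured further ligands held BMP and GDF genes and also NODAL, INHBA and INHBB. Of these 13, limma called 1 higher and 0 lower, and 2 higher with the block. GDF10, a relative of BMP3, rose by 1.09 ± 0.16 (SE, adjusted p = 0.0131). GDF2, which encodes BMP9, differed by 1.54 ± 0.34 (adjusted p = 0.0667, 0.00154 with the block). BMP10 and NODAL, which had the next smallest p, were present on no array, as were 6 of the 13. The median difference of this list was -0.02, the same as over all genes.

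Of 19 measured further secreted BMP-binding proteins and modulators, limma called 0, with 3 at an unadjusted p under 0.05, and 11 were present on no array. CRIM1, a membrane-bound BMP regulator, differed by 0.40 ± 0.16 and was the 1 higher call under the block (adjusted p = 0.0409, and 0.304 without). NBL1 was the 1 called lower with the block (adjusted p = 0.159 without it, 0.0361 with it), but it was present on no array, as was VWC2L. FSTL4, a follistatin-like gene, differed by -0.41 ± 0.15 (adjusted p = 0.273). The median of the list was -0.02, the value of FSTL5, which was itself present on no array. GREM1, CER1 and FSTL1 were among those present on no array.

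Of 15 measured receptor and SMAD genes limma called 0, with 3 at an unadjusted p under 0.05, and 2 were higher with the block. These were the type I receptor BMPR1B, at 0.59 ± 0.16 (adjusted p = 0.131, 0.0321 with the block), and the inhibitory SMAD6, at 0.82 ± 0.23 (adjusted p = 0.159, 0.00309 with the block). SMAD7 was present on 0 BRE_inactive and 3 BRE_active arrays (adjusted p = 0.307), and the signal transducer SMAD5 differed by 0.24 ± 0.13 (adjusted p = 0.442). Of the 15 genes, 5 were present on no array, among them BMPR1A and BMPR2. The list median of -0.02 was the value of another of these 5, SMURF1, so it says little about detected receptors. The median over 16 measured BMP response genes was 0.33, and limma called 0 lower and 7 higher. They were the homeobox genes MSX2 (1.69 ± 0.15, adjusted p = 0.0012), DLX5 (1.81 ± 0.18, adjusted p = 0.00199) and MSX1 (0.93 ± 0.14, adjusted p = 0.0138), with ID2, ID3, ID4 and TFAP2A. With the block 8 were higher and 1, ID1, was lower (adjusted p = 0.00747 with the block, 0.076 without). ID1 differed by -0.76 ± 0.17 (SE), and its BRE_active arrays all lay below its BRE_inactive arrays. These lists are descriptions beside the members, with no test of a list as a whole.

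**Figure D3:**
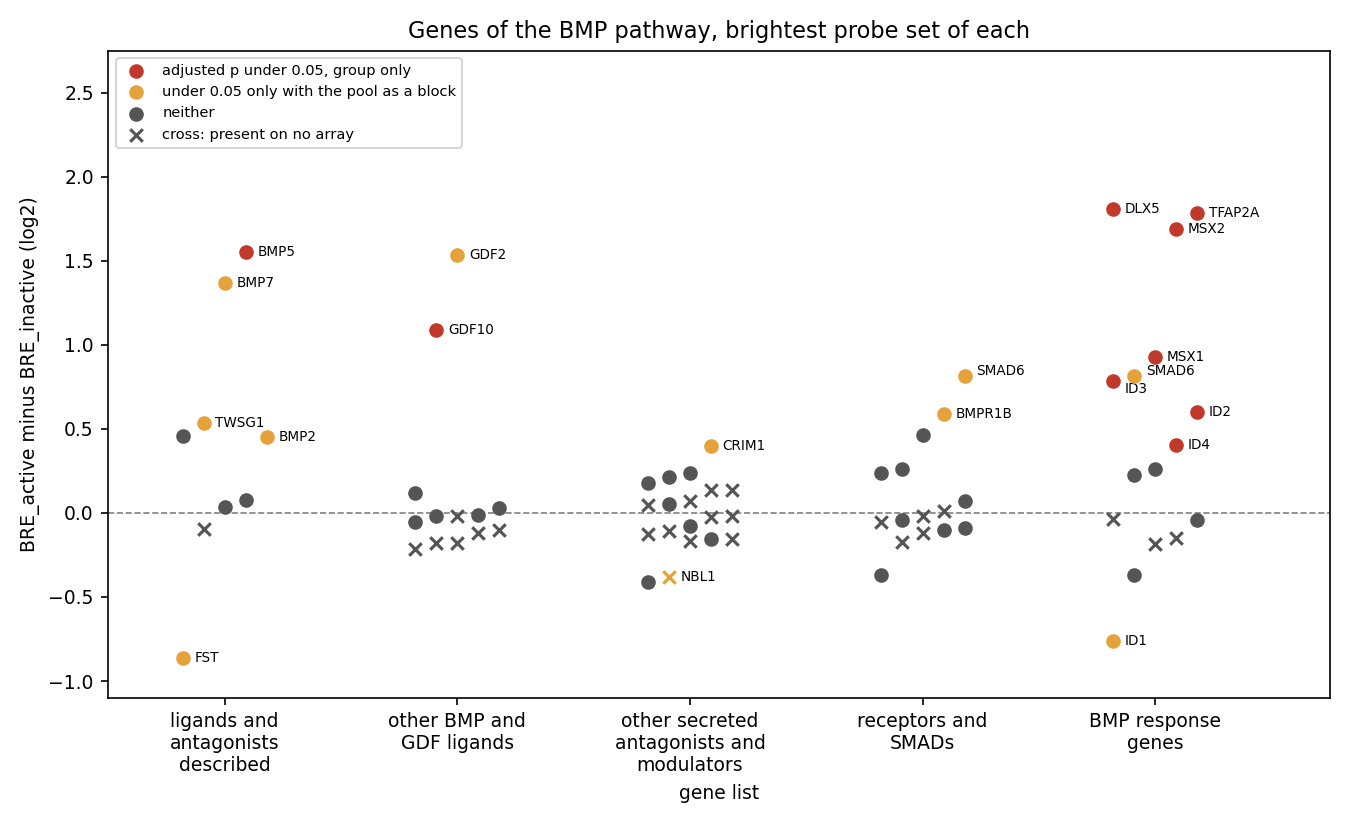
Difference between BRE_active and BRE_inactive cells (vertical axis, log2) for the brightest probe set of each gene in 5 lists, coloured by whether limma gave an adjusted p under 0.05 on group alone, only with pools as a block, or in neither; crosses mark genes present on no array. Most genes of the other ligand, modulator and receptor lists lie near 0, with GDF2, GDF10, SMAD6 (0.82) and BMPR1B (0.59) above, while 7 BMP response genes were called higher, among them DLX5, TFAP2A and MSX2. ID1, of the same list, lies at -0.76.

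The alternatives show how member calls and differences changed with the fit and with arrays or pools left out. Leaving out a pool also leaves fewer arrays, so a lost call alone does not show that a result rests on 1 pool. With the block and 1 pool left out, S1_at of BMP2 stayed at 0.40 to 0.51 and S1_at of BMP4 at 0.41 to 0.50. The alternative with series matrix values could only repeat the main fit, since they are the same values. BMP5 was called in 20 of 21 alternatives and the brightest BMP7 probe set in 6. The brighter FST probe set was called in 4, and those of BMP2 and TWSG1 in 2 each, all of these with the block. NOG, CHRD, the BMP4 probe set present on no array, S2_at of BMP2, S2_at of TWSG1 and s_at of BMP7 were called in 0 alternatives.

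**Figure D4:**
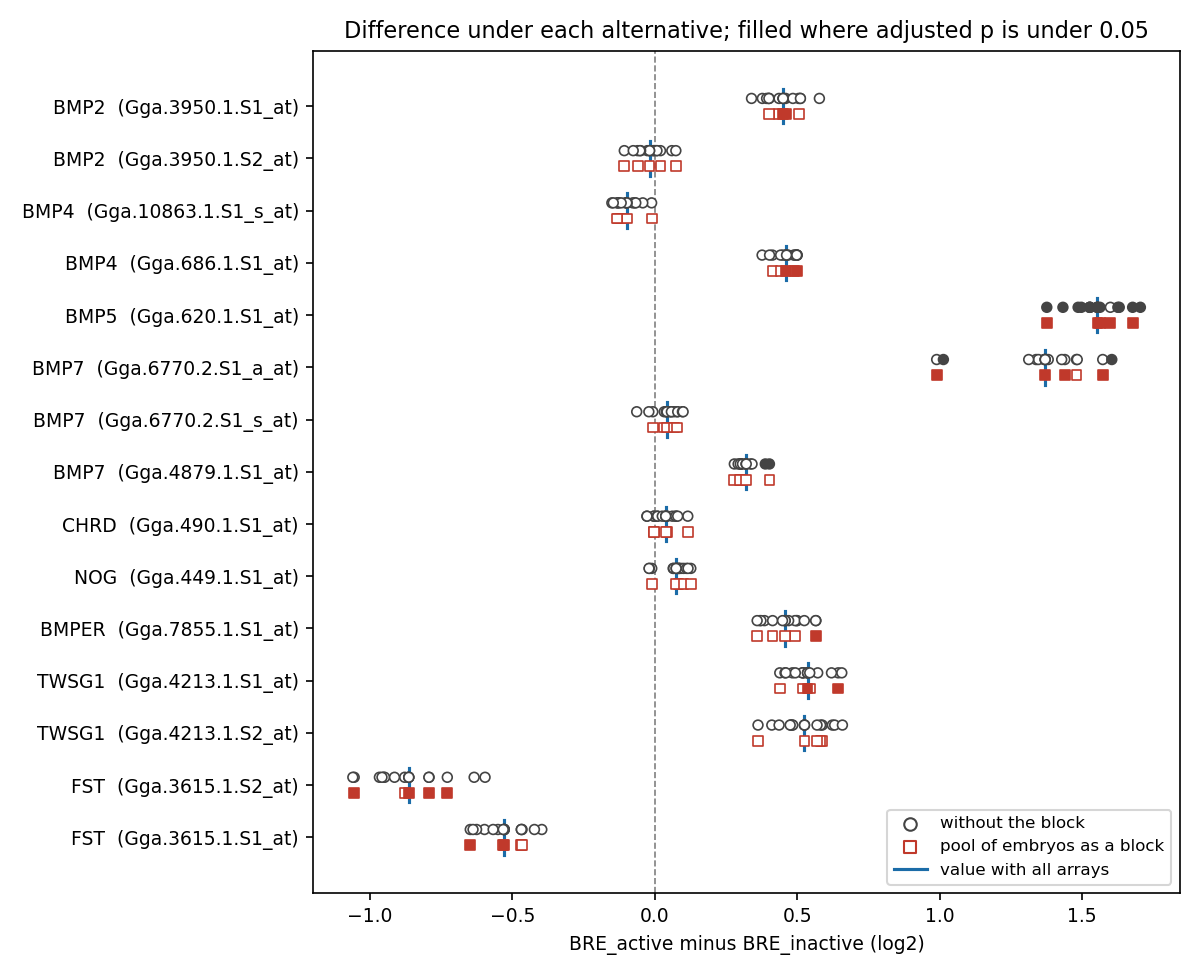
Difference between BRE_active and BRE_inactive cells (horizontal axis, log2) for each of the 15 probe sets under every alternative without the block (circles) and with pools as a block (squares), filled where the adjusted p was under 0.05; the vertical blue mark is the value with all arrays. BMP5 stays between 1.38 and 1.70 with 1 open symbol, and the brightest BMP7 probe set (a_at) ranges from 0.99 to 1.60. NOG and CHRD lie on both sides of 0, as does s_at of BMP7.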

How the data were processed

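Per the labels' protocols, RNA of the sorted chick neural tube cells was turned into biotinylated cRNA the standard Affymetrix way and measured on 8 arrays. The authors deposited log2 expression values with a present, marginal or absent letter and adjusted p-values; for background correction, normalization and probe summary the methods are not given. The deposited adjusted p-values were obtained again within 6.13e-13, and the series matrix holds the same log2 values within 5e-09. The 96 control probe sets were left out, and a model with group alone was fitted across the other 38439 (lmFit and eBayes of limma 3.58.1, R 4.3.3, p-values adjusted by Benjamini-Hochberg). Differences are BRE_active minus BRE_inactive. Symbols were updated through the gene ID (22915 of 26132 matched, RefSeq GRCg7b), while members were taken by the deposited symbol. The brightest probe set by mean stood for a gene, and lists were matched by exact symbol. Arrays, not sequencing depth, limit the precision. The fit was tested on simulated data.

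A pool number marks the same embryos, so the pools pair the arrays by design. After subtracting group means, the correlation between both arrays of a pool was -0.179, 0.262, 0.673 and 0.672 (pools 1 to 4, 12794 probe sets). No 2 arrays held the same values (smallest SD of a difference 0.192). The members, lists and tests were chosen with earlier results of these data known. Named genes were all members, the 4 smallest-p genes per pathway list, and the 3 nearest genes of each detected member. One of the nearest genes is not reported here.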

Additional observations from a re-analysis of the deposited data

Results flagged for a closer look

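Of 30 groups of 4 arrays (15 probe sets in 2 groups), 3 held an array that stood far from the other 3 by Dixon's test, where chance gives about 1 in 20. The brighter FST probe set read 4.83 on BRE_active 1, against 5.89 to 5.92 on the other BRE_active arrays. The other FST probe set was also lowest there, at 5.09. The second TWSG1 probe set read 9.20 on BRE_active 4, against 9.72 to 9.74 on the others, and the brighter one was lowest on the same array, at 9.53. The dim BMP7 probe set ending in S1_at read 3.09 on BRE_active 4, against 3.34 to 3.38 on the others, and was not called present there.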

How the results depend on the processing

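With the pool of embryos as a replicate block, 2156 probe sets were called in place of 517, 7 member probe sets in place of 1, and 5 member genes in place of 1. Beyond the values given beside each gene, the block changed no other call of a member. Adjusted over genes, 2 member genes were called, and 6 with the block as well, BMPER being added (adjusted p = 0.0432); both were chosen after seeing the data, as was leaving out pools under the block. Each pool left out in turn gave between 77 (without pool 3) and 1269 calls (without pool 4), 0 to 1 member genes and 0 to 2 member probe sets. The counts without pool 1 and 2 were 104 and 112. With single arrays dropped the counts were 211 (without BRE_active 3) to 1419 (without BRE_active 4), 1 to 2 and 1 to 2, and each array but BRE_inactive 2 and 3 moved the first count by over 1.5 times. With the block and 1 pool left out these were 767 to 1736, 2 to 5 and 2 to 6. The filter on dim probe sets, quantile normalization, the variance model, the series matrix values and the mean over probe sets left 1 member gene called, BMP5. Sign changes occurred only for uncalled probe sets near 0. Quantile normalization gave 0.0074 for S2_at of BMP2, -0.019 for NOG and -0.028 for CHRD, while it shifted all probe sets by a median of 0.013. With arrays or pools left out, S2_at of BMP2 ranged from -0.107 to 0.074, NOG from -0.021 to 0.126, CHRD from -0.028 to 0.116 and s_at of BMP7 from -0.064 to 0.099. The cause of these changes was not tested. BMP4, BMPER and part of the BMP7 signal lay near the detection limit. The BRE_inactive mean of BMP5, 4.38, was also close to the array medians of 4.24 to 4.32, although BMP5 was present on all 8 arrays.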
